A study of Mus musculus with 4 samples.

Results

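Glycolysis carries glucose to pyruvate. Glucose enters the cell through facilitative transporters, is trapped by hexokinase, is committed by phosphofructokinase and leaves the pathway as pyruvate through pyruvate kinase. Lactate dehydrogenase turns pyruvate into lactate, which monocarboxylate transporters carry out of the cell. The mitochondrial pyruvate carrier and the pyruvate dehydrogenase complex instead pass pyruvate to the mitochondrial citric acid cycle, and pyruvate dehydrogenase kinases shut the complex down. Mouse embryonic stem (ES) cells are known for a high glycolytic rate. Many of the steps have several isozymes, made by separate genes with different tissue patterns, so a step can hold its level while its isozymes change.

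The 36 genes of glucose uptake, glycolysis, lactate handling and pyruvate entry into mitochondria were taken by symbol, and all 36 had a row among the 37224 Ensembl gene identifiers of the count tables. They were measured by RNA-seq in 2 libraries labelled Smg6 deficient and 2 labelled wild type, all from mouse ES cells. The SMG6 protein cuts transcripts with a premature stop codon, a step of nonsense-mediated mRNA decay (NMD). The sources used here give neither the strain, the Smg6 allele, the culture conditions nor whether the replicates are separate lines or cultures, so p-values measure the spread between these libraries only. A log2 fold change sets Smg6-deficient cells over wild type and comes with its standard error (SE). Levels in each library are in CPM (read counts scaled to a common TMM-adjusted library size) where genotypes are compared for single members. The deposited RPKM (reads per exon length and library size) is used where genes are compared, for sums and shares, and for levels of listed genes outside the 36. Its library sizes differ from the count totals, as given under the processing. A gene was called higher or lower at an adjusted p under 0.05 from edgeR's quasi-likelihood test, adjusted over all 20895 genes tested.

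The tables held 155391181 and 137937779 counts in the Smg6-deficient libraries, against 137643993 and 130888768 in wild type. Smg6 itself stood at 87.6 and 86.2 CPM in Smg6-deficient libraries, against 95.7 and 105.1 CPM in wild type (log2 fold change -0.21, SE 0.083, adjusted p = 0.089), and a count over the whole gene does not check an allele that removes part of it. The marker lists are read against the 20.5% of all genes tested that were higher and the 19.2% that were lower. Of the 12 ES cell markers, 8 fell (66.7%) and 1 rose (8.3%). Their summed RPKM was 1823.0 and 1666.3 in Smg6-deficient libraries, against 3270.9 and 2619.0 in wild type. Nanog fell by 2.04, Fgf4 fell by 1.30 and Tcl1 fell by 2.52 on the log2 scale. Named after their values were seen, Utf1 rose (0.98), and Sox2, Sall4 and Tdgf1 did not pass. Of the 18 endoderm markers, 15 rose (83.3%) and 2 fell (11.1%), with log2 fold changes of 3.97 for Gata4, 3.62 for Lama1 and 4.95 for Cubn. Their summed RPKM was 470.2 and 637.2 in Smg6-deficient cells, against 204.2 and 166.8 in wild type. The genes that fell, named after their values were seen, were Afp (-1.69) and Hnf4a (-1.13), both at 0.52 RPKM or less in every library. Ttr, named in the same way, rose (3.64, SE 1.04) but was also near the floor. It had 0.26 and 0.06 RPKM in Smg6-deficient cells, against 0.03 and 0.0 RPKM in wild type. Apoa1 did not pass. Of the 18 markers of feeder fibroblasts, 5 rose (27.8%) and 13 did not pass, with Fbn1 at 0.73, Timp3 at 0.82 and Col5a2 at 0.41. None fell, and 17 of the 18 had a log2 fold change above 0. The median of this list was 0.36, beside 0.008 over all genes tested. The summed RPKM of the list overlapped between the groups (376.7 and 326.4 in Smg6-deficient cells, against 330.2 and 234.2 in wild type). Of the 8 trophectoderm markers, 3 rose (37.5%) and 5 fell (62.5%), with Krt8 at 1.88, Krt18 at 1.66 and Eomes at -1.42. Their summed RPKM was 141.4 and 130.1 in Smg6-deficient cells, against 84.0 and 55.8 in wild type. Krt18 alone had 84.2 and 78.7 RPKM in Smg6-deficient cells, against 31.6 and 21.8 in wild type. The higher sum thus follows the keratins and not the list. Cdx2 also rose, while Elf5, Tfap2c, Ascl2 and Gata3 fell like Eomes. No listed marker was at 0 counts in all 4 libraries. The part of these marker differences in the results that follow was not tested, and in bulk libraries fewer cells of a type and less RNA per cell cannot be told apart.

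All 36 genes had enough counts to be tested. In Smg6-deficient cells 4 were higher, against 20.5% of all genes tested, and 12 were lower, against 19.2% of all genes tested. These are 11.1% and 33.3% of the 36. The 4 that rose were Pdk1, Eno3, Pfkfb4 and Pfkm. The 12 that fell were Slc2a3, Slc16a1, Hk1, Gpi1, Pfkp, Pfkfb1, Pgk1, Pgam1, Ldhb, Pdk3, Pdha1 and Mpc2. Over the 36 genes the median log2 fold change was -0.15, beside 0.0080 over all genes tested. By CPM, 6 genes were higher in both Smg6-deficient libraries than in either wild-type library, against 37.3% of all genes, and 16 were lower in both, against 35.9%. In the other 14 the groups overlapped, while 73.2% of all genes did not overlap. The 20 genes that did not pass ranged from -0.48 to 0.17, with 13 below 0 and 7 above. Of the 16 calls, 11 were kept without Smg6-deficient replicate 1 and 11 without replicate 2, and the genes that lost theirs are given with their values.

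**Figure D1:**
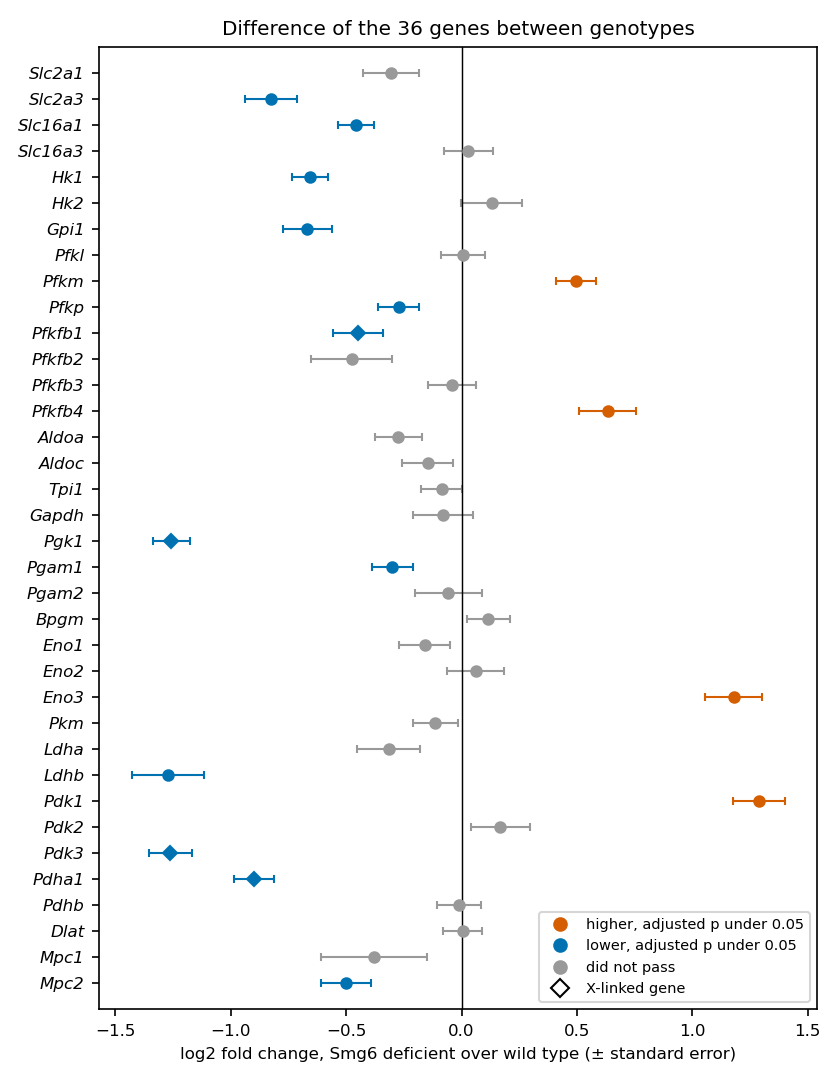
Log2 fold change of each of the 36 genes (Smg6 deficient over wild type, 2 libraries each), with bars of 1 standard error and genes in pathway order. Pdk1 (1.29) and Eno3 (1.18) lie farthest to the right, and Ldhb (-1.27), Pdk3 (-1.26) and Pgk1 (-1.26) farthest to the left; diamonds mark the 4 X-linked genes.

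The genes together took 1.09% and 1.05% of all counts in the Smg6-deficient libraries, against 1.47% and 1.36% in wild type. Levels spanned a wide range, from 0.84 RPKM for Mpc1 in Smg6-deficient replicate 1 to 830.6 RPKM for Pkm in wild-type replicate 1. The row of Mpc1 held 41.1% and 39.8% of its joint counts with 2 pseudogene rows in Smg6-deficient libraries, against 34.9% and 37.6% in wild type. Whether the placement of shared reads sets its level was not tested. Pkm, pyruvate kinase, and Aldoa, the main aldolase, had the highest RPKM in every library. Their order rests on the gene lengths behind the deposited RPKM, as given under the processing. Pkm stood at 752 and 647 RPKM in Smg6-deficient libraries, against 831 and 731 RPKM in wild type. Aldoa stood at 615 and 522 RPKM in Smg6-deficient cells, against 762 and 657 RPKM in wild type.

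**Figure D2:**
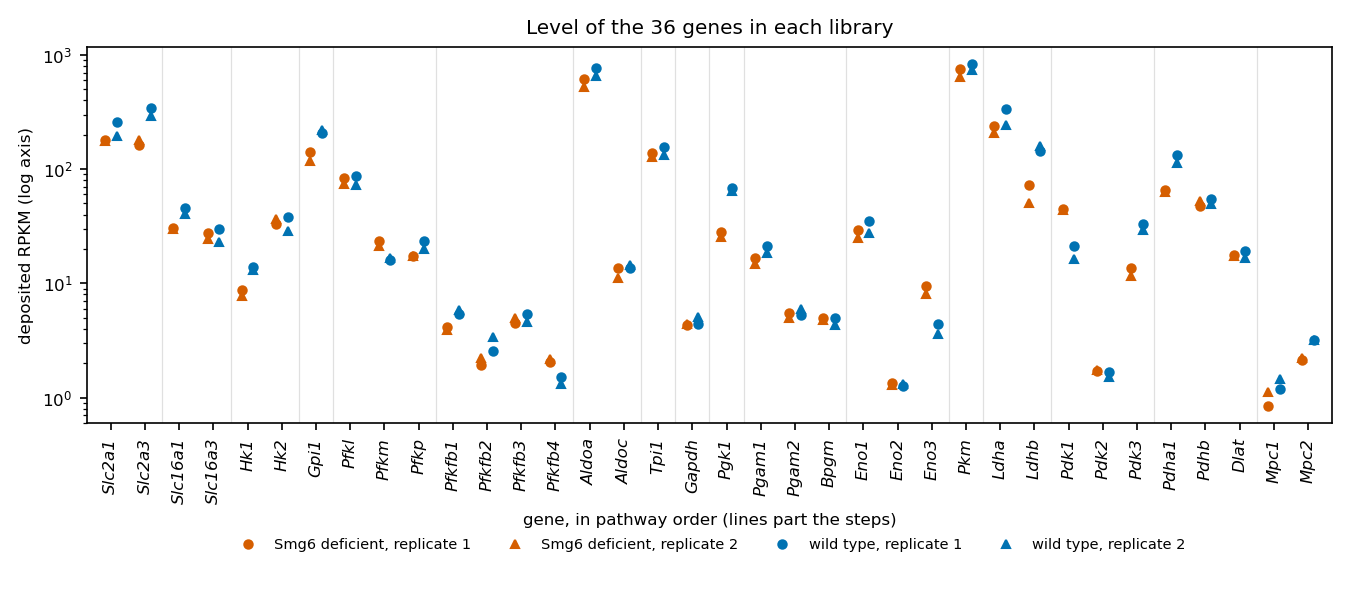
Deposited RPKM (log axis) of the 36 genes in each library, Smg6 deficient in orange left of wild type in blue, circles for replicate 1 and triangles for replicate 2. The sets are well apart for Slc2a3, Pgk1, Ldhb, Pdk1, Pdk3, Pdha1 and Eno3, while Pfkl, Hk2, Tpi1 and Dlat interleave.

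Of the glucose transporters, Slc2a3 fell. Slc2a3 (GLUT3, a high-affinity glucose transporter; ENSMUSG00000003153, GRCm38 chromosome 6, 122727809 to 122801640, minus strand) had 1384 and 1610 CPM in Smg6-deficient libraries, against 2788 and 2521 CPM in wild type. The groups did not overlap, and Slc2a3 fell by 0.83 on the log2 scale (SE 0.11, adjusted p = 0.0021). Slc2a1 (GLUT1, the widespread basal transporter) had 594 and 617 CPM in Smg6-deficient cells, against 832 and 665 CPM in wild type, which did not pass (log2 fold change -0.31, SE 0.12, adjusted p = 0.084). The groups did not overlap, but the wild-type libraries lay farther from each other than wild-type replicate 2 lay from the Smg6-deficient ones. Slc2a1 passed without wild-type replicate 2 (-0.48, adjusted p = 0.0010), and narrowly both after gene length correction (0.046) and with unscaled library sizes (0.049). Leaving out wild-type replicate 1 instead gave -0.12 (adjusted p = 0.20). Within the summed RPKM of both transporters, Slc2a3 held 47.9% and 50.7% in Smg6-deficient libraries, against 56.9% and 59.9% in wild type. No share could reach the threshold, since an exact permutation of 2 against 2 libraries cannot go below p = 0.33.

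The first enzymes split by isozyme. Hk1, the hexokinase of most tissues, had 87.2 and 81.3 CPM in Smg6-deficient libraries, against 132.2 and 133.2 CPM in wild type. It fell by 0.66 on the log2 scale (SE 0.079, adjusted p = 0.0014). Hk2, the inducible hexokinase and the one with the higher RPKM here, had 232 and 270 CPM in Smg6-deficient cells, against 255 and 204 CPM in wild type, and the groups overlapped (log2 fold change 0.13, adjusted p = 0.47), though Hk2 passed without wild-type replicate 1 (0.32, adjusted p = 0.027). The value was -0.044 when wild-type replicate 2 was omitted and 0.025 when Smg6-deficient replicate 2 was. The share of Hk1 in the hexokinase RPKM was 20.8% and 17.4% in Smg6-deficient cells, against 26.6% and 31.4% in wild type. Gpi1, glucose phosphate isomerase, which makes fructose phosphate (chromosome 7, 34201330 to 34230336), had 744 and 658 CPM in Smg6-deficient cells, against 1045 and 1182 CPM in wild type. Gpi1 fell by 0.67 on the log2 scale (SE 0.11, adjusted p = 0.0038). A pseudogene row matching Gpi1 held 78150 and 61013 counts in Smg6-deficient libraries, against 101749 and 108633 in wild type, and the gene's own row held 59.2% and 59.3% of their joint counts in Smg6-deficient cells, against 59.0% and 59.3% in wild type.

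Phosphofructokinase, the committed step, changed its make-up with little change in its sum. Pfkl, the liver type and the form with the highest RPKM, had 425 and 399 CPM in Smg6-deficient libraries, against 435 and 386 CPM in wild type. Its log2 fold change of 0.0056 (SE 0.094, adjusted p = 0.97) turned negative under other scalings. Pfkm, the muscle type (chromosome 15, 98092589 to 98132451), had 81.2 and 77.8 CPM in Smg6-deficient cells, against 53.6 and 59.1 CPM in wild type, and rose (log2 fold change 0.50, SE 0.086, adjusted p = 0.0051). Pfkp, the platelet type, had 189 and 201 CPM in Smg6-deficient cells, against 248 and 223 CPM in wild type (-0.27, SE 0.089, adjusted p = 0.048). The call of Pfkp is narrow: it was lost with any single library out other than wild-type replicate 2 (adjusted p from 0.068 to 0.37), with DESeq2 (0.059), with no count filter (0.094) and with both RPKM fits (0.091 and 0.092). The summed RPKM of the 3 forms was 124 and 112 in Smg6-deficient libraries, against 127 and 109.8 in wild type, and the share of Pfkm averaged 19.02% ± 0.02 in Smg6-deficient cells and 13.92% ± 1.79 in wild type (SD, n = 2 each).

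The Pfkfb genes encode bifunctional enzymes that make and remove the strongest activator of phosphofructokinase. All 4 were low, between 1.31 and 5.88 RPKM. Pfkfb4, a form found in testis and in hypoxic cells, had 9.504 and 10.5 CPM in Smg6-deficient libraries, against 6.68 and 6.21 CPM in wild type. Pfkfb4 rose (log2 fold change 0.63, SE 0.12, adjusted p = 0.0079), a call lost without Smg6-deficient replicate 2 (0.57, adjusted p = 0.063). Pfkfb1, an X-linked form of liver and muscle with the highest mean wild-type RPKM of the 4, had 19.3 and 19.2 CPM in Smg6-deficient cells, against 24.2 and 28.3 CPM in wild type. Pfkfb1 fell by 0.45 on the log2 scale (SE 0.11, adjusted p = 0.017) and lost its call without either Smg6-deficient library (adjusted p = 0.084 and 0.089). Pfkfb2 had 21.8 and 26.1 CPM in Smg6-deficient cells, against 27.6 and 39.1 CPM in wild type. It did not pass (-0.48, SE 0.18, adjusted p = 0.071), though omitting wild-type replicate 1 made it pass (-0.69, adjusted p = 0.0014). So did omitting Smg6-deficient replicate 2 (-0.60, adjusted p = 0.030), and it also passed by DESeq2 (-0.47, adjusted p = 0.021) and after correcting for gene length (-0.59, adjusted p = 0.030). It was smaller with wild-type replicate 2 omitted (-0.22, adjusted p = 0.17) and with Smg6-deficient replicate 1 omitted (-0.34, adjusted p = 0.22). Pfkfb3 did not pass (-0.042, adjusted p = 0.77), and its sign turned without wild-type replicate 1 or Smg6-deficient replicate 1.

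In the later steps of glycolysis most main enzymes did not pass, and Pgk1 stood out. Pgk1, phosphoglycerate kinase, which makes ATP (chromosome X, 106187100 to 106203699), had 74.4 and 69.8 CPM in Smg6-deficient libraries, against 173 and 171 CPM in wild type. It fell by 1.26 on the log2 scale (SE 0.079, adjusted p = 0.00022), with replicates of each group close together. The fall of Pgk1 lies inside the quartiles of X-linked genes (-1.35 and -0.21). Pgam1, phosphoglycerate mutase, had 35.3 and 33.3 CPM in Smg6-deficient cells, against 43.9 and 40.5 CPM in wild type (-0.30, SE 0.089, adjusted p = 0.036). The call of Pgam1 was lost with any library out other than wild-type replicate 2 (adjusted p from 0.057 to 0.30), with the gene length correction (0.055), with no count filter (0.076) and with both RPKM fits (0.084 and 0.086). Aldoa, which splits the phosphorylated hexose, had 1977 and 1770 CPM in Smg6-deficient cells, against 2363 and 2170 CPM in wild type. Aldoa did not pass (-0.28, SE 0.10, adjusted p = 0.071), but passed without wild-type replicate 2 (-0.36, adjusted p = 0.0100), and narrowly with upper-quartile factors (0.046), library size alone (0.039), the 50-count filter (0.038), limma-voom (0.045) and the gene length correction (0.040). Omitting any other single library gave -0.35 to -0.19 for Aldoa (adjusted p from 0.091 to 0.46). Pkm had 2281 and 2068 CPM in Smg6-deficient cells, against 2430 and 2277 CPM in wild type (-0.11, adjusted p = 0.39), and Tpi1, triose phosphate isomerase, had 359 and 344 CPM in Smg6-deficient cells, against 392 and 354 CPM in wild type (-0.086, adjusted p = 0.48). In both genes the groups overlapped.

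Among the enolases a minor form rose. Eno3, the enolase of muscle (chromosome 11, 70657202 to 70662513), had 19.4 and 17.2 CPM in Smg6-deficient libraries, against 8.64 and 7.50 CPM in wild type. Eno3 rose (log2 fold change 1.18, SE 0.13, adjusted p = 0.00089). Eno1, the ubiquitous form, had 184 and 165 CPM in Smg6-deficient cells, against 212 and 178 CPM in wild type, and the groups overlapped (-0.16, adjusted p = 0.29), though Eno1 passed without wild-type replicate 2 (-0.30, adjusted p = 0.016). With wild-type replicate 1 omitted it was at -0.016 (adjusted p = 0.89), and with Smg6-deficient replicate 2 omitted at -0.072. Eno3 made up 23.8% and 23.5% of the enolase RPKM in Smg6-deficient cells, against 10.9% and 11.1% in wild type. The neuronal form Eno2 (0.062, adjusted p = 0.72), the muscle mutase Pgam2 (-0.058, 0.78), the red-cell bisphosphoglycerate mutase Bpgm (0.12, 0.36) and the brain aldolase Aldoc (-0.15, 0.32) did not pass.

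Gapdh, which oxidises glyceraldehyde phosphate and serves widely as a reference gene, was listed at only 4.35 and 4.38 RPKM in Smg6-deficient libraries, against 4.42 and 5.09 RPKM in wild type. In CPM it had 11.4 and 12.1 in Smg6-deficient cells, against 11.2 and 13.7 in wild type (log2 fold change -0.080, SE 0.13, adjusted p = 0.66). Mouse Gapdh has many processed copies in the genome, and 72 annotated pseudogene rows matched it at 90% identity or more. These rows held 5898 and 4786 counts in Smg6-deficient libraries, against 6661 and 7647 in wild type, while the gene's own row held 1746 and 1639 in Smg6-deficient cells, against 1568 and 1838 in wild type. With the pseudogene counts added, the log2 fold change was -0.41 (edgeR adjusted p = 0.024), so the call for Gapdh depends on whether these rows are counted with it. The sources used here do not say how reads with several alignments were treated, and whether it sets the low level was not tested.

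Shared sequence concerned other members too. Of the 50-nt windows in the coding transcripts of Gapdh, 41.6% occurred in no other annotated gene, while the median over the 36 genes was 98.95%. Pgk1 had 32.0%, Eno1 50.5%, Pgam1 58.5% and Mpc1 73.2%. For 23 of the 36 genes at least 90% of windows were unique. Pseudogene rows matched 11 genes, 96 rows in all, and adding them changed the call of Gapdh and of no other member. For Pgk1 these rows held at most 3 counts in a library and for Eno1 at most 37. Adding them could therefore hardly change those calls, and it cannot show the effect of reads that are in no row. Where genes with few unique windows are set against other genes, as in the range and ranking of RPKM above, their levels carry this limit. Their shares within a step carry it too.

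**Figure D3:**
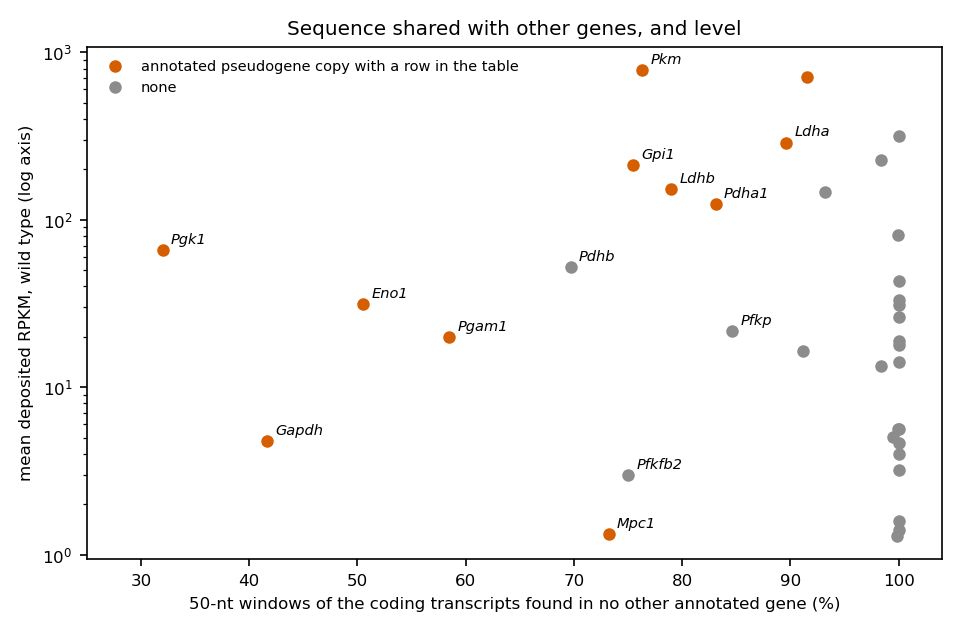
Percent of 50-nt windows of each gene's coding transcripts found in no other annotated gene (x axis) and mean wild-type RPKM (y axis, log), 1 point per gene, with genes under 90% named. Gapdh lies at 41.6% and 4.76 RPKM and Pgk1 at 32.0% and 66.2 RPKM; orange points have an annotated pseudogene copy with its own row.

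At the lactate step the form usually tied to lactate use fell. Ldhb, the heart-type subunit (ENSMUSG00000030246, chromosome 6, 142490249 to 142507957, minus strand), had 132.6 and 97.4 CPM in Smg6-deficient libraries, against 256 and 299 CPM in wild type. The groups did not overlap, and Ldhb fell by 1.27 on the log2 scale (SE 0.16, adjusted p = 0.0015). Ldha, the muscle-type subunit tied to lactate production, had 830 and 767 CPM in Smg6-deficient cells, against 1124 and 864 CPM in wild type. Ldha did not pass (-0.32, SE 0.14, adjusted p = 0.11), although the groups did not overlap, and it passed without wild-type replicate 2 (-0.51, adjusted p = 0.00099). With wild-type replicate 1 omitted it was at -0.10 (adjusted p = 0.32). Ldhb made up 23.3% and 19.4% of the lactate dehydrogenase RPKM in Smg6-deficient cells, against 30.2% and 39.7% in wild type. The summed RPKM of both subunits was 311 and 259.6 in Smg6-deficient cells, against 480 and 401 in wild type. The promoter windows of the pair are shown because the subunits of this enzyme differ in them: they run from 250 bases before to 50 after the first RefSeq start (GRCm38.p6), with ACGTG or GCGTG on either strand in capitals. These letters are the core that hypoxia-inducible factors bind, and CACGTG holds ACGTG on each strand. The Ldha window (chr7:46845554-46845853, plus strand) has 5 matches of ACGTG, 4 of them in 2 copies of CACGTG, and 2 of GCGTG. The Ldhb window (chr6:142507908-142508207, minus strand) has 0 and 1.
Ldha: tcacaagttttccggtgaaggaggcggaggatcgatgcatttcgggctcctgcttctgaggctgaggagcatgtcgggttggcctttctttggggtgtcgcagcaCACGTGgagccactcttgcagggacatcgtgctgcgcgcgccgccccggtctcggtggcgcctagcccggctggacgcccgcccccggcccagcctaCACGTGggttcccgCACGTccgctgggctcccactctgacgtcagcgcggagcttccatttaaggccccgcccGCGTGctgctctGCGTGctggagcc
Ldhb: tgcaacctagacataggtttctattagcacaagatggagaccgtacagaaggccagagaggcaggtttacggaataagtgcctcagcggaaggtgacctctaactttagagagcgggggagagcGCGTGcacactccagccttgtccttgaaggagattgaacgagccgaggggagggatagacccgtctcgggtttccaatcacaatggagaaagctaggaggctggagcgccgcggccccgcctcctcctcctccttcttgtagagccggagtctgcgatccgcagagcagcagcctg

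Across the 35 members with a window, 71.4% held ACGTG or GCGTG, beside 43.8% of 27025 genes with a window. The windows of the members were also richer in G and C, with a median of 62.0% beside 52.7%. ACGTG was in 42.9% of members and 19.7% of all genes, GCGTG in 54.3% and 32.5%, and CACGTG in 14.3% and 7.2%. Ldha held 7 matches, more than any other member and with each CACGTG counted on both strands, and Ldhb held 1. Whether the matches bear on the levels was not tested. A match in these letters is not a bound site.

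Export followed the same split into a gene that fell and one that did not pass. Slc16a1 (MCT1, which moves lactate and pyruvate with a proton) had 159 and 162 CPM in Smg6-deficient libraries, against 225 and 215 CPM in wild type. It fell by 0.46 on the log2 scale (SE 0.077, adjusted p = 0.0047), and missed the threshold without Smg6-deficient replicate 1 (-0.43, adjusted p = 0.056). Slc16a3 (MCT4, the exporter of highly glycolytic cells) had 171 and 161 CPM in Smg6-deficient cells, against 178 and 148 CPM in wild type, with overlapping groups (0.029, adjusted p = 0.84) and a sign that turned under other scalings. Slc16a1 held 52.8% and 54.7% of their RPKM in Smg6-deficient cells, against 60.4% and 63.6% in wild type.

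The kinases that switch off pyruvate dehydrogenase exchanged places. Pdk1, a kinase that hypoxia is known to induce (ENSMUSG00000006494, chromosome 2, 71873224 to 71903858, plus strand), had 406 and 418 CPM in Smg6-deficient libraries, against 186 and 152 CPM in wild type. Pdk1 rose (log2 fold change 1.29, SE 0.11, adjusted p = 0.00048). Pdk3, the X-linked kinase (ENSMUSG00000035232, chromosome X, 93764607 to 93832201, minus strand), had 40.9 and 36.3 CPM in Smg6-deficient cells, against 95.5 and 89.6 CPM in wild type. Pdk3 fell by 1.26 on the log2 scale (SE 0.093, adjusted p = 0.00030). That lies inside the quartiles of X-linked genes (-1.35 and -0.21), so the fall of Pdk3 cannot be told apart from theirs. Pdk2 was low, at 6.30 and 6.78 CPM in Smg6-deficient cells, against 5.90 and 5.74 CPM in wild type, and did not pass (0.17, adjusted p = 0.33). Pdk1 made up 74.4% and 76.7% of the kinase RPKM in Smg6-deficient cells, against 37.9% and 34.7% in wild type, while Pdk3 made up 22.7% and 20.2% in Smg6-deficient cells, against 59.1% and 62.1% in wild type. Their summed RPKM was 60.2 and 57.0 in Smg6-deficient libraries, against 56.03 and 47.0 in wild type, so the sum differed far less than its parts. The promoter windows of these genes, which moved in opposite directions, are shown for comparison. The Pdk1 window (chr2:71872974-71873273, plus strand) has 0 matches of ACGTG and 2 of GCGTG, and the Pdk3 window (chrX:93832101-93832400, minus strand) has 1 and 3, in capitals.
Pdk1: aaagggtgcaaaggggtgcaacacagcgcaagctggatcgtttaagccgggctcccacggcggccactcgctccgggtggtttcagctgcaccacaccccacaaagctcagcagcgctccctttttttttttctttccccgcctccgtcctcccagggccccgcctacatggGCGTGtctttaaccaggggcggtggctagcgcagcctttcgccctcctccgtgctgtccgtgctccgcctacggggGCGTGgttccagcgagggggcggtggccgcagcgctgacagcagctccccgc
Pdk3: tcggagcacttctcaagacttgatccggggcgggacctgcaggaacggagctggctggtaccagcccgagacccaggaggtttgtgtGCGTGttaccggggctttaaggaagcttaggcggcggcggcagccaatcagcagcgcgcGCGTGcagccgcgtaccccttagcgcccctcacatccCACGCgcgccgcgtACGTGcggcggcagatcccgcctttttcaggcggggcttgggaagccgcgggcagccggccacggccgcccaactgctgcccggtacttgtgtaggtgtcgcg

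**Figure D4:**
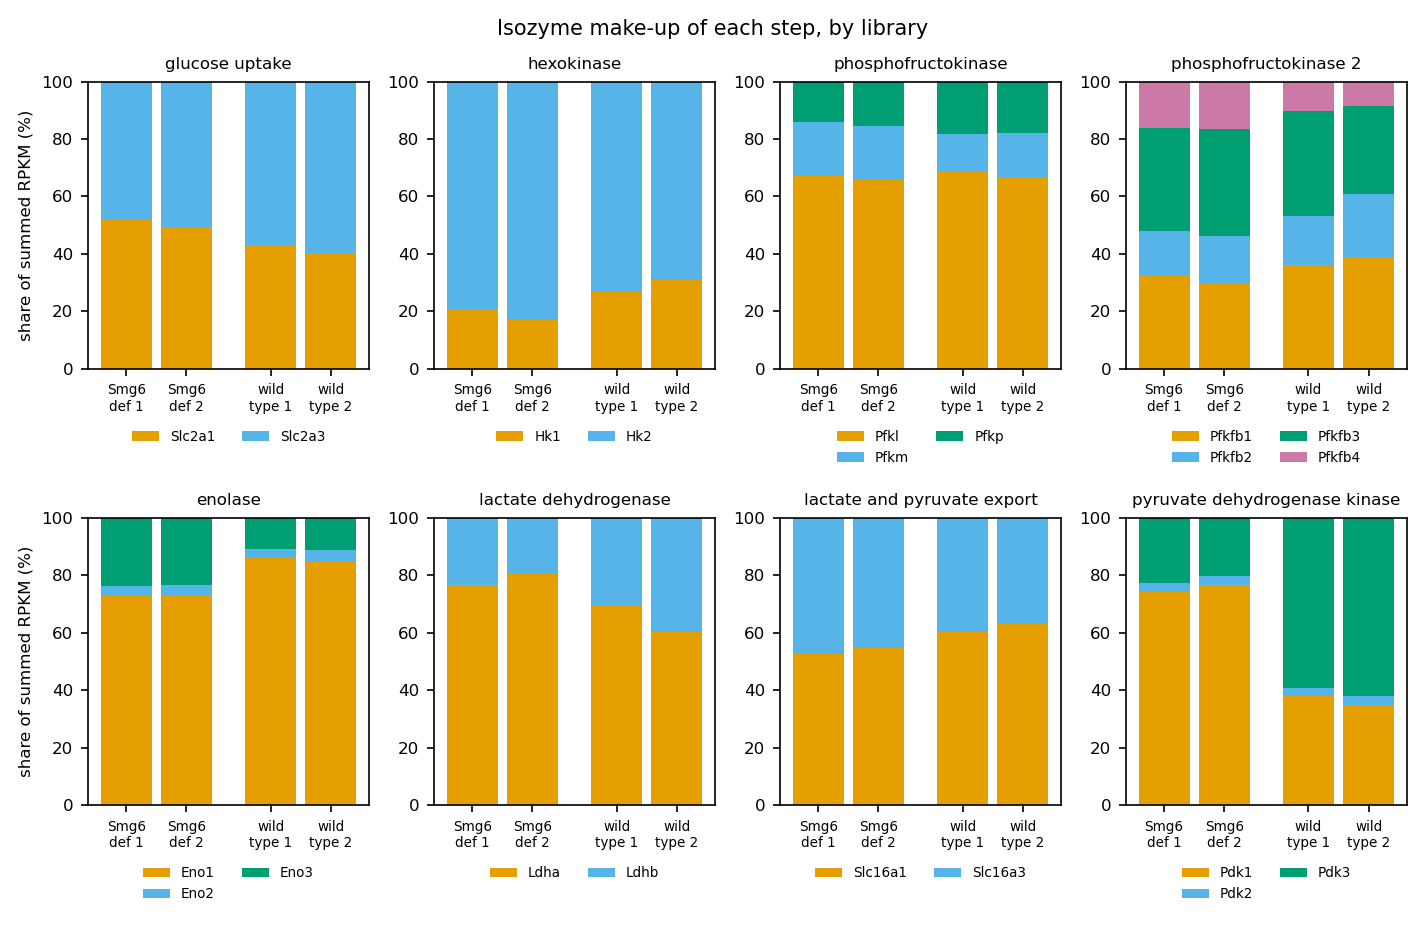
Share of each isozyme in the summed RPKM of its step (percent), 1 bar per library, Smg6 deficient left of wild type. Pdk1 takes 74.4% and 76.7% of the kinase bars in Smg6-deficient libraries, against 37.9% and 34.7% in wild type, and Eno3 takes 23.8% and 23.5% of the enolase bars in Smg6-deficient cells, against 10.9% and 11.1% in wild type. Sequence that Eno1 shares with other genes limits the enolase shares, and Pdk3 is X-linked.

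The complex itself was lower at its X-linked subunit. Pdha1, the catalytic subunit that the kinases phosphorylate (chromosome X, 160122209 to 160138413), had 288 and 293 CPM in Smg6-deficient libraries, against 567 and 516 CPM in wild type. It fell by 0.90 on the log2 scale (SE 0.087, adjusted p = 0.00066). Exons of Map3k15 on the opposite strand cover 16.1% of its exonic bases, and such reads cannot be separated in libraries that do not mark strand. Pdhb, its autosomal partner, had 82.9 and 96.2 CPM in Smg6-deficient cells, against 91.6 and 88.7 CPM in wild type, and Dlat, the acetyltransferase core, had 99.99 and 103.3 CPM in Smg6-deficient cells, against 106.0 and 96.6 CPM in wild type. In neither did the groups separate (log2 fold changes -0.010 and 0.0047, adjusted p = 0.94 and 0.97), and the sign of each turned under other settings. Mpc2, a subunit of the pyruvate carrier, had 9.55 and 10.3 CPM in Smg6-deficient cells, against 13.7 and 14.5 CPM in wild type. Mpc2 fell by 0.50 on the log2 scale (SE 0.11, adjusted p = 0.012), a call lost without Smg6-deficient replicate 1 (adjusted p = 0.13) or 2 (0.054). Mpc1, its partner, did not pass (-0.38, SE 0.23, adjusted p = 0.23), and an opposite-strand gene covers 23.1% of its exonic bases.

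All 4 X-linked members fell, where 60.3% of X-linked genes were called in either direction. Of the 1040 X-linked genes tested, 56.7% fell and 3.56% rose. Their median was -0.76 on the log2 scale and their quartiles -1.35 and -0.21. Pgk1 (-1.26), Pdk3 (-1.26) and Pdha1 (-0.90) lay inside that range, as did Pfkfb1 (-0.45). The fall of these 4 genes therefore cannot be told apart from the shift of X-linked genes at large. Of the 32 autosomal members, 8 were lower, against 17.3% of autosomal genes, and 4 were higher, against 21.6%. In either direction that is 12 of 32, where 38.8% of autosomal genes were called. Their median log2 fold change was -0.100, beside 0.031 over all autosomal genes.

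**Figure D5:**
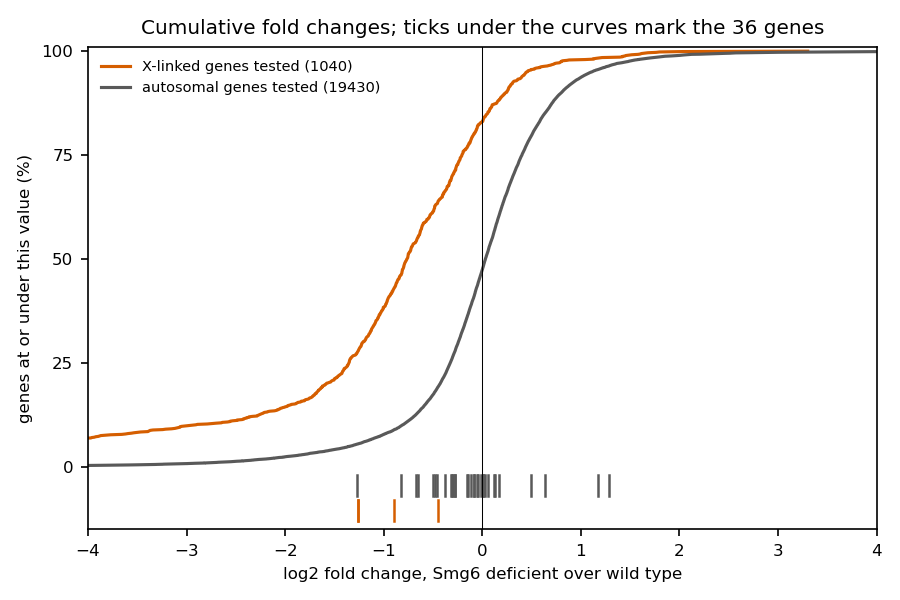
Cumulative share of tested genes (y axis) at or under each log2 fold change (x axis), for 1040 X-linked genes in orange and 19430 autosomal genes in grey. Ticks below the curves mark the 4 X-linked members (orange) and the 32 autosomal ones (grey); the X-linked ticks lie between -1.26 and -0.45.

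Members were also set by whether the annotation gives them an NMD transcript. GENCODE gives 12 of the 36 genes at least 1 transcript of the NMD class, and of these 1 rose (Pfkfb4) and 5 fell (Slc2a3, Gpi1, Pfkp, Pgk1 and Mpc2). Of the 24 without one, 3 rose and 7 fell. Over all tested coding genes, 33.3% of those with such a transcript were higher and 14.6% lower, against 20.7% and 22.3% of those without. The median log2 fold change of the 12 members was -0.31, beside -0.100 for the other 24.

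Related genes outside the 36 are given by list, and each list is read against the 20.5% of all genes that were higher and the 19.2% that were lower. Among 29 tested isozymes and partners of the same steps, 6 rose and 6 fell, which is 20.7% in each direction and near those shares. Hkdc1, a hexokinase-like gene, had 1.43 and 2.31 RPKM in Smg6-deficient libraries, against 0.19 and 0.32 RPKM in wild type, and rose (log2 fold change 2.91, SE 0.35, adjusted p = 0.0014). Pdha2, the testis copy of Pdha1 on an autosome, had 0.63 and 0.57 RPKM in Smg6-deficient cells, against 2.75 and 2.46 RPKM in wild type and fell by 2.06 on the log2 scale (adjusted p = 0.00027). Pdp1, the phosphatase that reactivates pyruvate dehydrogenase, fell by 0.84 (adjusted p = 0.0021). Pdpr, the regulatory subunit of that phosphatase and named after its value was seen, rose (0.77, adjusted p = 0.0085), while the phosphatase Pdp2 (-0.051, adjusted p = 0.75) and the kinase Pdk4 (-0.079, adjusted p = 0.64) did not pass.

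In gluconeogenesis 2 of 7 tested genes rose (28.6%) and 3 fell (42.9%). Pck1, among those that fell and named after its value was seen, was near the floor, at 0.04 RPKM or less in every library (-2.72, SE 0.57). Slc37a4, the glucose phosphate transporter of the endoplasmic reticulum, rose (1.13, adjusted p = 0.00071), as did Pck2, the mitochondrial carboxykinase (1.03, adjusted p = 0.0015), while pyruvate carboxylase Pcx fell by 0.50 (adjusted p = 0.0071). In the pentose phosphate pathway 1 of 12 rose (8.3%) and 4 fell (33.3%), with falls of 4.32 for Tktl2, 2.97 for Tktl1 and 1.13 for Prps1 on the log2 scale. Of these 12 genes 4 are X-linked, Tktl1 and Prps1 among them, and on autosomes the numbers were 1 higher and 1 lower of 8. Tktl2 had 0.10 and 0.09 RPKM in Smg6-deficient cells, against 1.95 and 1.98 RPKM in wild type. Tktl1 had 0.50 and 0.42 RPKM in Smg6-deficient cells, against 3.78 and 3.68 RPKM in wild type. Their relative Tkt, named after its value was seen, did not pass (-0.053, adjusted p = 0.76). Tkt had 71.9 and 53.4 RPKM in Smg6-deficient cells, against 70.8 and 62.95 RPKM in wild type. The citric acid cycle, which takes up the product of pyruvate dehydrogenase, had 1 of 19 higher (5.3%) and 5 lower (26.3%), against 20.5% and 19.2% of all genes. Ogdh, of the oxoglutarate dehydrogenase complex, rose (0.49, adjusted p = 0.0034), fumarate hydratase Fh1 fell by 0.45 (adjusted p = 0.0047) and the X-linked Idh3g fell by 1.12 (adjusted p = 0.00028). Of 9 genes of the shuttles that move NADH electrons into mitochondria, 2 rose (Slc25a10 at 0.65 and Gpd2 at 0.35) and 2 fell, Gpd1l by 0.55 among them. That is 22.2% in each direction, near the shares of all genes.

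Lists of genes that control the pathway held calls in both directions. Of 11 genes of the hypoxia-inducible factor pathway, 4 rose (36.4%) and 2 fell (18.2%), against 20.5% and 19.2% of all genes. Epas1, an oxygen-regulated subunit, rose (1.10, adjusted p = 0.0045), as did its partner Arnt (0.55, adjusted p = 0.0039) and Cited2, a competitor for their coactivator (0.84, adjusted p = 0.0099). The genes that fell, named after their values were seen, were Hif1a, the most widespread oxygen-regulated subunit (-0.30, adjusted p = 0.036), and Vhl, which marks these subunits for destruction (-0.35, adjusted p = 0.017). Of 22 hypoxia-inducible genes outside glycolysis, 5 rose (22.7%) and 4 fell (18.2%), near the shares of all genes, with a median of -0.11. Car9, a carbonic anhydrase, rose to 1.89 and 1.63 RPKM in Smg6-deficient libraries, against 0.83 and 0.75 RPKM in wild type. Jmjd6 rose (0.62) and Ndrg1 fell by 0.86. Of 16 glucose sensing and energy regulators, 7 rose (43.8%) and 3 fell (18.8%), with a median of 0.27. Myc, a known activator of glycolytic genes, rose (1.52, adjusted p = 0.0012), as did Mlxipl, a glucose-sensing transcription factor (1.01), and Txnip, which restrains glucose uptake (0.70, adjusted p = 0.0011). Txnip had 152.8 and 146.5 RPKM in Smg6-deficient libraries, against 97.4 and 93.3 RPKM in wild type. Mlxipl was low, at 1.63 and 1.54 RPKM in Smg6-deficient cells, against 0.75 and 0.86 RPKM in wild type. Arrdc4 (-0.49, adjusted p = 0.0054), Esrrb (-0.53, 0.0069) and Tigar (-0.26, 0.046) fell, and are named after their values were seen.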

How the data were processed

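Total RNA was extracted with TRIzol and made into TruSeq RNA v2 libraries, a kit that does not mark strand, and read as single 50-bp reads on a HiSeq instrument, per the labels' protocols. The submitters' processing notes name TopHat2 2.0.9 and the mm10 build. The sources used here do not give the gene counter, its annotation or how multiply aligned reads were handled. For each library the authors deposited unnormalized gene counts and RPKM values by Ensembl identifier. The deposited RPKM rest on library sizes that, relative to wild-type replicate 1, are 1.054 for Smg6-deficient replicate 2 and 1.018 for wild-type replicate 2, where the count totals are 1.002 and 0.951. RPKM of both libraries therefore run low beside counts. The gene lengths that the deposited RPKM imply also differ from the exonic lengths used here. Their ratio, scaled to the median gene, was 0.52 for Pkm, 0.95 for Aldoa, 0.54 for Gapdh, 0.38 for Pdhb and 0.52 for Mpc2. It was 1.33 for Pfkfb2 and 1.0 for many other members. Rankings of genes by RPKM rest on these lengths.

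Symbols and positions came from GENCODE M21 (GRCm38, the assembly named mm10), which matched 35449 of 37224 identifiers. The quasi-likelihood test of edgeR 4.0.16, run in R 4.3.3 with TMM scaling, compared the genotypes on all genes kept by filterByExpr at a minimum count of 10. Benjamini-Hochberg adjustment covered these 20895 genes, with a threshold of 0.05. The SE is the absolute log2 fold change over the square root of F. This step was checked on simulated counts in which few genes changed, evenly in both directions. That check does not cover data where many genes differ and X-linked genes shift together, as here. Members and lists were chosen with earlier results of these data known. Values per library are given for each member past the threshold and for the member with the highest RPKM of each step, and from each other list up to 3 genes with the smallest adjusted p are named. Pseudogene rows were matched with blastn at 90% identity over at least 50% of the pseudogene. Sequences are from RefSeq (GRCm38.p6), where 35 of 36 genes matched and Slc2a3 did not. DESeq2 1.42.0 and limma 3.58.1 served as alternatives.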

Additional observations from a re-analysis of the deposited data

How the results depend on the processing

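No called member changed direction under the 18 alternatives. Slc16a1, Pfkp, Pfkfb1, Pfkfb4, Pgam1 and Mpc2 lost their call in at least 1, with values given above, and the other 10 kept it, except that adjustment over autosomal genes makes no call for Pgk1, Pdk3 and Pdha1. Leaving out single libraries gave 7 to 16 lower members, 2805 to 5578 higher genes and 2300 to 4899 lower genes, with the fewest lower members without Smg6-deficient replicate 1 and the most without wild-type replicate 2. Limma-trend called 2700 higher genes on log2(RPKM + 1) and 2643 on log2(RPKM + 0.1), against 4285 by edgeR on counts. With CPM over exonic length the share of Pfkfb4 differed by 5.88 percentage points, against 6.99 on deposited RPKM, and no other share moved by more than the spread between replicates. The replicate numbers are shared between groups but nothing in the labels pairs the samples (the correlation of same-numbered deviations across genes was 0.196); with the replicate block 4 members were higher and 16 lower, and with the block and gene length correction 4 and 17, adding Slc2a1, Pfkfb2, Aldoa and Ldha in both and Eno1 in the second. Signs turned for uncalled genes near 0. For Slc16a3, Pfkl and Dlat the log2 fold changes were -0.0056, -0.030 and -0.031 with upper-quartile factors, -0.027, -0.051 and -0.052 with library size alone, -0.013, -0.037 and -0.038 with the 50-count filter, -0.0099, -0.037 and -0.037 on log2(RPKM + 1), -0.0099, -0.037 and -0.039 on log2(RPKM + 0.1), -0.054, -0.10 and -0.069 with the gene length correction and -0.048, -0.098 and -0.068 with it and the block. Pfkl and Dlat were at -0.0051 and -0.0060 with DESeq2 size factors and -0.016 and -0.017 with autosomal scaling. Pgam2 and Eno2 were at 0.099 and -0.0081 with the gene length correction and 0.10 and -0.0064 with it and the block. With single libraries left out, Dlat ran from -0.081 to 0.087, Gapdh from -0.21 to 0.054, Hk2 from -0.044 to 0.32, Pdhb from -0.11 to 0.10, Pfkfb3 from -0.14 to 0.070, Pfkl from -0.098 to 0.11, Pgam2 from -0.16 to 0.051, Slc16a3 from -0.12 to 0.18 and Tpi1 from -0.18 to 0.0028. The cause of these changes was not tested. Where a group keeps a single library, the fit takes its variability from the other group. Levels of Gapdh, Pgk1, Eno1, Pgam1, Gpi1 and Mpc1 are limited by sequence shared with other genes.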
